A study of Homo sapiens with 8 samples.

Results

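The regions described here gained an ATAC-seq peak when HCC44 lung cancer cells were treated with ACBI1. ATAC-seq marks open chromatin, because a transposase inserts sequencing adapters where DNA is not packed onto nucleosomes. The members were chosen by their peaks: overlapping peaks of the 4 HCC44 lists on chromosomes 1 to 22 and X were merged where they shared at least 1 bp, and a region was kept when both ACBI1 lists and neither DMSO list had a peak in it. This gave 1330 gained regions of 58436 merged HCC44 regions, or 2.28%, and of 69078 regions when the lists of both cell lines were merged. The series held 8 samples: H1975 and HCC44 cells, both human lung cancer lines whose genotype label is WT, treated for 96 h with DMSO, the vehicle, or with ACBI1 (4 groups of 2 replicates). The labelled ACBI1 dose is 1 mM, which is unusually high for such a compound, so the unit in the label may be wrong and the true dose is uncertain. The labels do not say whether replicates were separate cultures, so the spread between them may be technical. Read depth is unknown, since the lists hold peaks without read counts.

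SWI/SNF (BAF) complexes slide and evict nucleosomes using the energy of ATP, which keeps many enhancers open. ACBI1 is a bifunctional molecule that brings 3 SWI/SNF proteins, the ATPases SMARCA2 and SMARCA4 and the bromodomain subunit PBRM1, to a ubiquitin ligase for degradation. Loss of this activity is known mainly for the closing of enhancers, while promoters rich in CpG tend to stay open, so the less common gains are the subject here. Protein levels were not analysed here.

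Gains were the minority. The ACBI1 lists of HCC44 held 26295 and 24847 peaks, and the DMSO lists held 50323 and 49921. Beside the 1330 gained regions, 22218 regions had a peak in both DMSO lists and no ACBI1 list and are called lost, and 20114 had a peak in all 4 lists and are called retained. A further 2241 regions had a peak in 1 ACBI1 list only, 1366 of them in replicate 1 and 875 in replicate 2. These lie just outside the rule on the side of the ACBI1 lists. On the side of the DMSO lists, 605 regions had both ACBI1 peaks and a peak in DMSO replicate 2, and 520 had both and a peak in DMSO replicate 1. The weakest of those DMSO peaks had −log10 q values of 10.3 to 10.7, close to the lowest value in any list, and the gained regions nearest to a DMSO peak were 11 to 107 bp away from it. Where only the 24847 strongest peaks by −log10 q of each HCC44 list were used, 7173 regions met the rule. DMSO peaks below about the median of their list then no longer counted, and those medians were 31.4 and 29.2. Without ACBI1 replicate 1 the count was 2210, and without ACBI1 replicate 2 it was 2715, against 1861 without DMSO replicate 1 and 1953 without DMSO replicate 2.

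The lists were checked against cell type markers, as a peak within 1 kb of either end of the gene. The epithelial genes EPCAM, KRT8, KRT18 and KRT19 and the lung adenocarcinoma gene NAPSA had such a peak in all 8 lists. So did the mesenchymal genes VIM and ZEB1, and the epithelial gene CDH1 had one in 7 of 8. The endothelial genes PECAM1 and CDH5, the leukocyte gene PTPRC and the other mesenchymal gene, CDH2, had one in none. CD3E, a T cell gene, had one in 1 HCC44 DMSO list and both H1975 DMSO lists. NKX2-1, a lung lineage factor, had a peak in 1 of 4 HCC44 lists and in all 4 H1975 lists, and SFTPB in the DMSO lists of HCC44 only.

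Gained regions at gene starts are the ones whose sequence could be read. RefSeq promoter windows (GRCh38.p14, from 250 bp before to 50 bp after a transcription start) were overlapped by gained regions in 48 of 34961 cases. The 48 windows belonged to 45 genes, 28 of them protein-coding. A gained region covered between 3 and 300 bases of a window, with a median of 252.5, and held the transcription start itself in 37 of 48. Of these, 5 that were covered over at least 251 bases are printed, because they span the range of the set: ATF7IP, whose gained region ranks first of the 48 by mean −log10 q percentile, TMOD4, which was gained in both cell lines, the neuronal CDK5 activator gene CDK5R2, and the CpG-rich starts of the kinase gene CSNK2A2 and of the RNA decay gene ZFP36. Each window is written from 5′ to 3′ on the strand of its gene. Capitals mark matches on either strand to the letters TGANTCA (AP-1), GGAATG (TEAD), GGGCGGGG (SP and KLF factors), CAGCTG (an E-box), CCGGAAG (ETS) or AAGATGGCG (YY1).
ATF7IP: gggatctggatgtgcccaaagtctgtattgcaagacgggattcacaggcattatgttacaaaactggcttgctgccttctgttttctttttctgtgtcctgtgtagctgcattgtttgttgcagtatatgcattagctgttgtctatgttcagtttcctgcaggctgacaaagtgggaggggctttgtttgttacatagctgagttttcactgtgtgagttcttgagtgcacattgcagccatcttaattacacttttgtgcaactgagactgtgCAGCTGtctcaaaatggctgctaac
TMOD4: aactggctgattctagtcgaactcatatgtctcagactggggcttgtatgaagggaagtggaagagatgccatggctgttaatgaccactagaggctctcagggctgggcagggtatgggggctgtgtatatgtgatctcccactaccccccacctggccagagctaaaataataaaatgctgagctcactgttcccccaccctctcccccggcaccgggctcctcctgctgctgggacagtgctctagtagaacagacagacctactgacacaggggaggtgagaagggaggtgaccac
CDK5R2: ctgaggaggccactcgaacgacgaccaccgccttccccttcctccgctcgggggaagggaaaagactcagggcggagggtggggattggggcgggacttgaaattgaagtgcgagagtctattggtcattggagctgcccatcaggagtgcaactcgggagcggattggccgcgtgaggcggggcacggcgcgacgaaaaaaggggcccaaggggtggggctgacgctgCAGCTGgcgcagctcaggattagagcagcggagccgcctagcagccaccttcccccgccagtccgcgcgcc
CSNK2A2: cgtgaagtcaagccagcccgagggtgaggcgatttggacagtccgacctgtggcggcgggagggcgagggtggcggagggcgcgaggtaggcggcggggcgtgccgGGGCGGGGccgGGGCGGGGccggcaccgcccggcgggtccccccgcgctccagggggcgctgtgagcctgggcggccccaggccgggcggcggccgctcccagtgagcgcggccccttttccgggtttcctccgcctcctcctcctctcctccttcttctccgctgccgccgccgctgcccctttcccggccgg
ZFP36: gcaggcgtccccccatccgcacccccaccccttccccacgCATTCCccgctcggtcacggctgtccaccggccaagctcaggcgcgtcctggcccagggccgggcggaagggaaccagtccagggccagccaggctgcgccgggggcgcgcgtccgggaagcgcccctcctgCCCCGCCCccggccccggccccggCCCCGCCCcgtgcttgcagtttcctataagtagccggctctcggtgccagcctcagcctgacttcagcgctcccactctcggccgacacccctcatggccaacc

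The ATF7IP window, chr12:14385031-14385330 on the plus strand, was covered in full by a gained region and held 44.0% G and C and 1 CpG. Its −log10 q was 32.0 in ACBI1 replicate 1 and 24.0 in replicate 2. ATF7IP, a partner of the histone methyltransferase SETDB1, had a second start in a gained region, at chr12:14394613-14394912, with 36.0% G and C and no CpG. In contrast, the CSNK2A2 window, chr16:58198057-58198356 on the minus strand, held 78.3% G and C and 39 CpG. The ZFP36 window, chr19:39406597-39406896 on the plus strand, held 74.7% and 29, and the CDK5R2 window, chr2:218959416-218959715 on the plus strand, 66.0% and 26. TMOD4, which encodes an actin-capping tropomodulin of muscle, has its window at chr1:151175932-151176231 on the minus strand, with 55.0% G and C and 3 CpG, and none of the 6 marked motifs. The regions at the CSNK2A2 window and the printed ATF7IP window had a peak in all 4 H1975 lists. The ZFP36 region had one in all but H1975 DMSO replicate 1, and the second ATF7IP region in all but H1975 DMSO replicate 2. The CDK5R2 region had one in H1975 ACBI1 replicate 1 only. Gained starts thus ranged from CpG-rich to CpG-poor windows.

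As a set, the 48 gained windows lay between retained and lost ones in base composition. The window table used here had no entry on chromosome 8, and whole windows were counted, also where a region covered only part. Their median G and C content was 60.8%, against 66.3% in the 14537 windows overlapped by retained regions, 52.7% in the 813 overlapped by lost regions and 58.7% in all windows. The median number of CpG was 12 in gained, 27 in retained, 5 in lost and 14 in all windows. The AP-1 letters, bound by jun and fos dimers, stood in 3 of 48 gained windows, or 6.25%, in 7.68% of all windows and in 29.8% of lost windows. The SP and KLF letters stood in 25% of gained, 39.1% of retained, 14.8% of lost and 22.8% of all windows. The ETS letters stood in 10.4% of gained, 18.9% of retained, 5.04% of lost and 10.3% of all windows, so the gained share was near that of all windows. Of the other motifs found in at least 5 gained windows, 6 had a higher share there than in all windows. The TEAD letters stood in 22.9% of gained, 20.2% of lost and 14.04% of all windows. The CAGCTG E-box stood in 27.1%, 22.3% and 18.0%, and the E-box CAGGTG of ZEB and SNAI factors in 27.1%, 21.03% and 20.6%. The CTCF core stood in 20.8% of gained, 8.98% of lost and 10.6% of all windows, and in 15.4% of retained ones. The NF-κB motif stood in 10.4%, 8.24% and 6.53%, and the antioxidant response element of NRF2 in 10.4%, 6.396% and 3.18%. The windows at IGSF11 and TEX55 overlap each other and are 2 of the 5 gained windows of each of these motifs. Both are also among the CAGCTG windows, and 2 overlapping windows of SEMA3B are among the CTCF ones. These motif shares rest on 5 to 13 windows, they were read out of 34 motifs after their values were seen, and no test was made.

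The gained peaks were weak to moderate within their own lists. These peaks chose the members, so their values are a description. The authors' −log10 q of the gained peaks had a median of 17.4 in ACBI1 replicate 1 and 16.0 in replicate 2, with ranges of 10.2 to 51.3 and 10.2 to 45.1. For retained regions the medians were 32.7 and 30.6. As percentiles within each list, the gained peaks had medians of 23.4 and 20.4, and 9.02% and 5.04% of them lay above the list's own median. By fold enrichment, the height of a peak over the caller's background, they sat higher, with median percentiles of 40.0 and 39.8. Gained regions were also narrow, as the median width was 493 bp for gained, 592 bp for lost and 1134 bp for retained regions. Across the 1330 regions the values of both replicates went together, with a Spearman correlation of 0.676 for −log10 q and 0.931 for fold enrichment. These points share libraries, and peak width and local background enter both values. Each gained region held 1 peak per ACBI1 list, and in 1293 of 1330 the replicate peaks shared at least 50% of the shorter one.

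**Figure D1:**
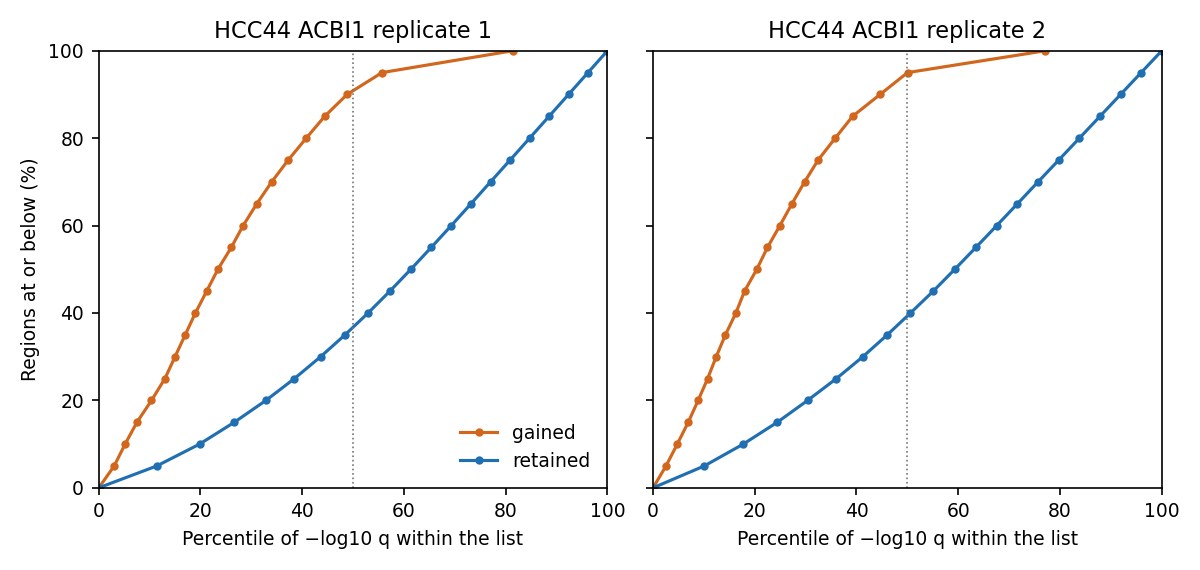
Cumulative share of regions (vertical axis, percent) by the percentile of their −log10 q within the list (horizontal axis), for gained and retained regions in each HCC44 ACBI1 list. The dotted line marks the middle of the list, above which 9.02% and 5.04% of the gained peaks lie.

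The H1975 lists played no part in choosing the members, and they offered a look at the same places in a second line. In H1975, 14.6% and 14.7% of the gained regions were overlapped by a peak in the DMSO lists, and 38.0% and 22.6% in the ACBI1 lists (194, 196, 506 and 300 of 1330 regions). Both ACBI1 lists were above both DMSO lists, although they were shorter, with 27659 and 22115 peaks against 43504 and 41003. The mean rose from 14.7% ± 0.106 (SD, n = 2) to 30.3% ± 11.0 (SD, n = 2), a difference of 15.6 percentage points against a pooled SD of 7.74 points. The exact permutation test over the 4 samples, two-sided, gave p = 0.333, the smallest value it can give. The size depended on the library: the difference was 7.89 points without H1975 ACBI1 replicate 1 and 23.4 points without H1975 ACBI1 replicate 2.

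Other HCC44 regions went the other way in the same lists. Over all HCC44 regions, the share overlapped in H1975 fell by 19.2 points with ACBI1, from 57.0% to 37.8%, and over lost regions it fell by 41.0 points, from 53.5% to 12.6%. Retained regions were near even, at 84.2% with DMSO and 82.0% with ACBI1. Regions with a peak in 1 HCC44 ACBI1 list only showed a smaller difference than the gained ones, 5.91 points, from 8.68% to 14.6%. Taken within each H1975 list, the share of gained regions minus that of all HCC44 regions was −43.6 and −41.2 points with DMSO and −3.91 and −11.2 points with ACBI1, a difference of 34.8 points with a pooled SD of 3.82. Against retained regions the difference was 17.8 points with a pooled SD of 3.71, and against regions in 1 ACBI1 list only 9.73 points with a pooled SD of 3.42. All 3 exceeded the spread between replicates, and in each the exact permutation test gave its smallest possible p of 0.333.

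**Figure D2:**
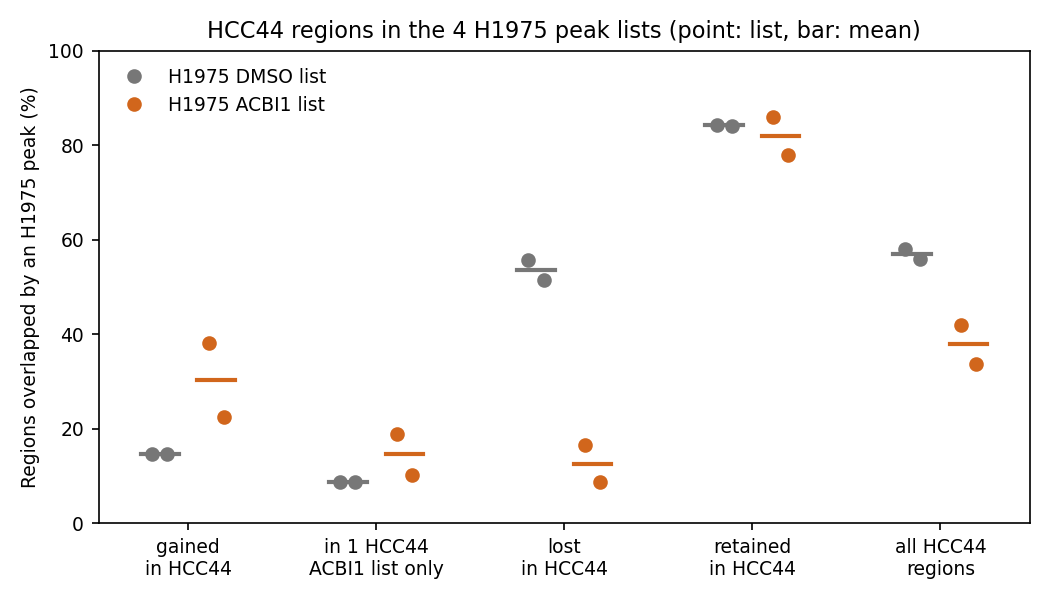
Share of HCC44 regions overlapped by a peak (vertical axis, percent) in each H1975 list, by class of HCC44 region. Each point is a list and each bar the mean of 2 lists. Gained regions sit at 14.6% and 14.7% in the DMSO lists and at 38.0% and 22.6% in the ACBI1 lists, while lost regions fall from 53.5% to 12.6% on average.

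Single regions showed the same direction. Of the 1330 gained regions, 100, or 7.52%, were also gained in H1975, with a peak in both ACBI1 lists and neither DMSO list. That pattern was found for 0.837% of all HCC44 regions and 2.86% of regions in 1 HCC44 ACBI1 list only. The reverse pattern, lost in H1975, was seen for 5 gained regions, or 0.376%. It was seen for 16.3% of all HCC44 regions and 0.491% of regions in 1 HCC44 ACBI1 list only. A peak in at least 1 H1975 ACBI1 list and no H1975 DMSO list was found for 305 gained regions (22.9%), and the opposite for 15 (1.13%). Over all HCC44 regions these shares were 3.29% and 21.1%, and over regions in 1 HCC44 ACBI1 list only 10.8% and 1.61%. Most gained regions had no H1975 counterpart, since 784, or 58.9%, were in none of the 4 H1975 lists, and 126, or 9.47%, were in all 4 and so were also open in H1975 with DMSO. Over all HCC44 regions 36.4% were in none and 31.5% in all 4, and of the regions in 1 HCC44 ACBI1 list only 78.4% and 4.82%. From the other side, H1975 had 650 gained regions of 48394 (1.34%), and 102 of them, or 15.7%, overlapped a region gained in HCC44, which is 7.67% of the HCC44 set. Without H1975 ACBI1 replicate 2 the share gained in both lines was 21.1%, since replicate 1 alone covered 181 gained regions and replicate 2 alone 24.

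Stronger gained regions had H1975 peaks more often. The gained regions were divided by their mean −log10 q percentile into equal parts. Of the strongest 444, 19.4% and 21.2% had a peak in the H1975 DMSO lists and 53.8% and 37.2% in the ACBI1 lists, a difference of 25.2 points. For the weakest 443 the values were 11.1%, 10.6%, 25.3% and 11.96%, a difference of 7.79 points. Gained regions within 5 kb of an HCC44 DMSO peak differed by 22.1 points, from 16.7% to 38.9%, and those farther away by 10.4 points, from 13.0% to 23.4%. The exact permutation p was 0.333 in each of these 4 subsets, and the differences between them were not tested.

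Gained regions lay close to chromatin that was open with DMSO. The median gap from a gained region to the nearest HCC44 DMSO peak was 6044 bp, and 592 of 1330, or 44.5%, had one within 5 kb. The same share, taken to the nearest other region with a DMSO peak, was 21.8% for retained, 21.6% for lost and 30.2% for regions in 1 ACBI1 list only. Within 1 kb there were 37 gained regions (2.78%), and 91.4% lay within 50 kb. The nearest region with a DMSO peak was a lost one for 42.0% of gained regions, a retained one for 34.4% and another pattern for 23.5%. Of all regions with a DMSO peak, 40.5% were lost and 36.7% retained. Within 5 kb, however, lost neighbours were more frequent, as 26.5% of gained regions had a lost region that near and 12.3% a retained one. At 222 regions with −log10 q of at least 20 in both ACBI1 lists, the share within 5 kb was 60.4%.

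Gene ends were seen less at gained than at retained regions, and 3′ ends made up more of them. A gained region lay within 1 kb of a protein-coding gene's start or end in 136 cases, or 10.2%, against 49.99% of retained, 4.48% of lost and 21.04% of all HCC44 regions. Strand was known for genes on all chromosomes except 8, which left 1276 gained regions. Of these, 36, or 2.82%, lay within 1 kb of a 5′ end and 67, or 5.25%, within 1 kb of a 3′ end but no 5′ end. Retained regions showed the opposite order, 40.8% at 5′ ends and 2.74% at 3′ ends only, and lost regions had 1.78% of each. Regions in 1 ACBI1 list only had the same order as gained ones, with 3.06% at 5′ ends and 4.45% at 3′ ends only. Leaving aside regions at 5′ ends, 3′ ends held 5.40% of gained, 4.60% of single-list, 4.62% of retained and 1.81% of lost regions. With a fold enrichment of at least 5 required of every peak in all 4 lists, 632 regions met the rule and the gene end share was 29.7%, almost 3 times as high, because DMSO peaks under that height then no longer counted. In 671 cases, or 50.5%, the gained region lay inside a protein-coding gene, against 73.2% of retained and 52.4% of lost regions. Exons and introns inside genes were not told apart.

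**Figure D3:**
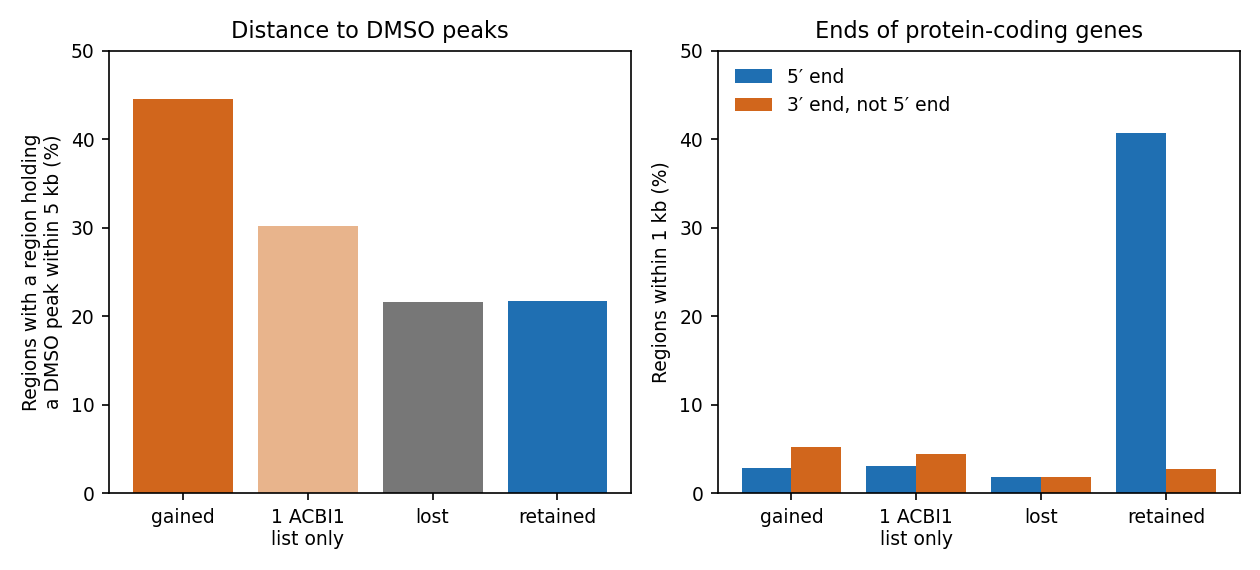
Left, share of regions (percent) whose nearest other region with an HCC44 DMSO peak lies within 5 kb. Right, share of regions (percent) within 1 kb of the 5′ end, or of the 3′ end and no 5′ end, of a protein-coding gene. Gained regions are highest on the left at 44.5% and have more 3′ than 5′ ends on the right, 5.25% against 2.82%.

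The rate of gained regions differed between chromosomes. Chromosome 19, the most gene-dense, had 100 gained among 2238 regions, or 44.7 per 1000, against 22.8 per 1000 over all chromosomes. Chromosomes 20, 16 and 14 followed with 31.8, 31.7 and 29.6 per 1000, and chromosomes 13, 4 and 18 had the fewest, with 14.1, 14.2 and 15.2. Over the 23 chromosomes the rate went with the density of protein-coding genes, with a Pearson correlation of 0.826, 0.630 without chromosome 19, and a Spearman correlation of 0.698. Chromosomes 12 and 22, which are not gene-poor, still lay below the overall rate, with 16.6 and 22.1 per 1000. Counted per 1000 retained regions, chromosome 20 came first with 92.9, followed by 19 with 87.3 and 14 with 86.3, while 17 and 22 had 62.7 and 58.2, against 66.1 over all chromosomes, and the correlations with gene density were 0.427 (Pearson) and 0.305 (Spearman). This is a description, since all chromosomes come from the same libraries and the copy number of each chromosome in HCC44 was not analysed here. Gained regions on chromosome 19 were also open in H1975 more often, at 32.0% and 37.0% in the DMSO lists and 59.0% and 47.0% in the ACBI1 lists. The most gained regions in a 10 Mb window were 30, from 40 to 50 Mb of chromosome 19. From 60 to 70 Mb of chromosome 20, there were 18 among 203 regions, or 88.7 per 1000. Gained regions rarely stood side by side, as 109 of 1307 gaps between neighbours were 50 kb or less.

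**Figure D4:**
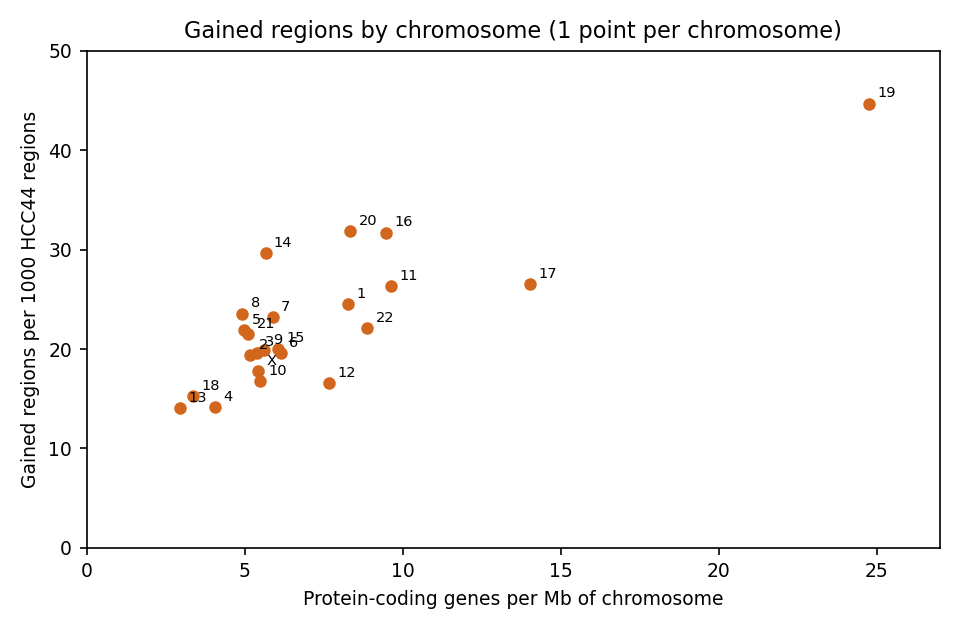
Gained regions per 1000 HCC44 regions (vertical axis) against protein-coding genes per Mb (horizontal axis), 1 point per chromosome, with the chromosome named beside it. Chromosome 19 stands at the upper right with 44.7 per 1000, and chromosomes 13, 4 and 18 at the lower left with 14.1 to 15.2.

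The strongest gained regions lay near PRKCI, CBLC and SS18L1. The first by mean −log10 q percentile, chr3:170310236-170310594, lies 4259 bp from PRKCI, an atypical protein kinase C gene, and 47121 bp from SKIL, whose product restrains SMAD signalling. Its −log10 q was 48.7 and 39.2 in the HCC44 ACBI1 lists, and it was gained in H1975 too, at 60.6 and 67.2. The second, chr19:44770522-44771076, lies 6793 bp from the ubiquitin ligase gene CBLC and 10478 bp from BCL3, a member of the IκB family, with values of 35.8 and 44.2. It was open in all 4 H1975 lists, at 62.1 and 70.2 with DMSO and 92.9 and 75.1 with ACBI1, so only the HCC44 lists showed it as gained. The third, chr20:62156463-62157322, is inside SS18L1, which encodes a SWI/SNF subunit known from neurons. It had 51.3 and 30.8 in HCC44, no peak in the H1975 DMSO lists, and 15.5 and 15.5 in the H1975 ACBI1 lists.

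The rest of the top 10 divided in the same ways. The region inside SHE, chr1:154479884-154480326, lies 10434 bp from IL6R, the interleukin-6 receptor gene, and was gained in both lines, at 38.8 and 33.5 in HCC44 and 43.3 and 39.4 in H1975. Peaks in all 4 H1975 lists were found for the region inside ZCCHC14 (chr16:87461527-87461915), the region 8190 bp from the mixed-lineage kinase gene MAP3K9 (chr14:70817703-70818006) and the region 5638 bp from the neuronal splicing factor gene NOVA2 (chr19:45927724-45928096). A single H1975 ACBI1 list had a peak at the region inside CMBL (chr5:10283729-10284444, replicate 2) and at the region 14351 bp from DMRTB1 (chr1:53444696-53445048, replicate 1). No H1975 list had one at chr3:155382515-155382832, which lies 68102 bp from the phospholipase gene PLCH1.

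Regions gained in both lines included sites at STAT3 and IFI44L. The STAT3 region, chr17:42322883-42323771, is inside the gene, whose product carries cytokine signals to the nucleus, and had −log10 q of 27.9 and 32.1 in HCC44 and 28.4 and 28.2 in H1975. The IFI44L region, chr1:78617635-78617997, lies 2451 bp from the 5′ end of this interferon-induced gene, with 26.7 and 27.9 in HCC44 and 18.7 and 18.8 in H1975. Neither had a peak in a DMSO list of either line. Further regions of the 10 strongest in both lines were chr20:11205083-11205572, whose nearest gene is the Notch ligand gene JAG1 at 531084 bp, chr12:30807182-30807612 at 52231 bp from CAPRIN2, chr14:77068010-77068710 at 29548 bp from CIPC, chr1:17125827-17126214 at 6376 bp from the 5′ end of the arginine deiminase gene PADI2, and chr19:44689308-44690067 at 4953 bp from CEACAM19. The regions near PRKCI, in SS18L1 and in SHE, described above, complete that group.

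At gene ends, the 10 strongest gained regions by mean −log10 q percentile were mostly at 3′ ends. Their fold enrichment varied, from 2.77 and 2.36 at GPX4 and 3.06 and 2.46 at MAP1LC3B to 6.92 and 6.60 at GPR65. The medians of the 2 ACBI1 lists were 4.97 and 4.49. The GPX4 and MAP1LC3B regions lay 1250 and 1362 bp from an HCC44 DMSO peak. The GPX4 region, chr19:1106389-1107522, covers the 3′ end of the gene for the enzyme that reduces lipid peroxides, had −log10 q of 30.4 and 23.02, and was gained in H1975 too, at 27.9 and 14.8. The regions at MAP1LC3B (chr16:87404914-87405716), which encodes the autophagy protein LC3B, and at the anion exchanger gene SLC4A3 (chr2:219642326-219642786) lay 140 and 355 bp from the 3′ end, with values of 32.3 and 20.5, and 24.5 and 22.7. Both had H1975 peaks in both ACBI1 lists and DMSO replicate 2. EIF2B5, a translation factor gene, had its 3′ end inside chr3:184145081-184145553, which was in all 4 H1975 lists. NFATC2 (732 bp), PMM1 (77 bp), CAPG (0 bp) and the proton-sensing receptor gene GPR65 (814 bp) also had a 3′ end nearest. The region at FUZ, a ciliogenesis gene, covers its 5′ end (chr19:49813318-49813731, 30.2 and 18.9), and the one at CBLC (chr19:44800273-44800733, 29.9 and 24.0) was in all 4 H1975 lists.

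By number of gained regions inside the gene or within 50 kb, TRIO, a guanine nucleotide exchange factor gene, came first with 6, beside 6 lost and 15 retained regions. Its 6 regions were weak, with −log10 q from 10.2 to 20.8 in replicate 1 and from 11.4 to 16.5 in replicate 2, and 5 of the 6 were in no H1975 list. Another 9 genes tied at 4, among them MIB2, MMP23B, CDK11B, CAMTA1, NTSR1, ZBTB46, SLC6A19 and SLC6A18. MIB2, MMP23B and CDK11B are neighbours and share their regions, as do SLC6A19 and SLC6A18, and CDK11B has a near-identical copy next to it, so reads there may be placed uncertainly.

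Over fixed gene lists, a gained region lay in the gene or within 50 kb for 44 of 299 genes, against 13.3% of all 19974 protein-coding genes. The lists hold 11 to 33 genes each, so 1 gene moves a share by several points, and no list was tested. The AP-1 list had the highest share, 5 of 13: FOS, FOSB, FOSL1, FOSL2 and MAFG. These genes also lie in peak-rich places, with a median of 6 retained regions around a gene of that list against 2 over all genes. Their gained peaks were weak. The region counted for FOS lies 21223 bp away (−log10 q of 13.99 and 13.6) and that for FOSL2 2053 bp away (12.6 and 11.8). The region counted for FOSL1 lies 31426 bp away, nearer to DRAP1 (12.1 and 13.1). The one for MAFG lies 33057 bp away, nearer to ALYREF (14.1 and 10.5). FOSB had 2 regions, 39156 bp away inside ERCC1 and 23478 bp away inside PPM1N. The one inside PPM1N (14.8 and 16.5) was gained in H1975 as well.

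Cytokine genes had a gained region for 6 of 25, or 24%, against 13.3% of all protein-coding genes. Around a gene of this list the median was 2 retained and 3 lost regions, against 2 and 1 over all genes. The 6 genes were the receptor genes IL6R and OSMR, the ligand genes LIF, CXCL8 and CSF3, and NFKB2, a subunit of NF-κB. The LIF region, chr22:30238707-30239849, lies 604 bp from the gene, with −log10 q of 17.4 and 16.5. The NFKB2 region lies 914 bp from the gene, inside PSD and 9333 bp from the NFKB2 5′ end, with 15.01 and 14.5. Both had a peak in H1975 ACBI1 replicate 1 and no other H1975 list, as did the OSMR region. CXCL8, which encodes interleukin-8, had a region 10773 bp away with 16.4 and 19.8 and no H1975 peak. The CSF3 region lies 17406 bp away inside MED24 and is also counted for THRA below. The interferon and STING list had 4 of 22, with IRF3, ISG15 and again CXCL8 among them. The region counted for IRF3 (21.4 and 18.6) lies 6320 bp away inside BCL2L12. The one counted for ISG15 (20.8 and 16.9) lies 34818 bp away inside PERM1.

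Nuclear receptor genes had 7 of 33, namely ESR1, ESRRB, RARG, PPARA, PPARD, VDR and THRA. THRA, the thyroid hormone receptor alpha gene, had 3 regions, 2 of them inside the gene, and VDR, the vitamin D receptor gene, had 1 inside, with −log10 q of 18.2 and 12.5. The TGF-beta list had 4 of 19, with a median of 2 retained and 3 lost regions around a gene, against 2 and 1 over all genes. TGFBR2, the type 2 receptor gene, held a region inside the gene and 389 bp from its 3′ end, with 18.5 and 21.6 and no H1975 peak. SKIL has the region near PRKCI described above. BMPR1A, a BMP receptor gene, had a region 33847 bp away that was in all 4 H1975 lists. The YAP and TEAD list had 3 of 15 with TEAD3, AMOTL2 and AJUBA. Around a gene of that list the median was 4 retained and 3 lost regions. The TEAD3 region lies 23693 bp from that gene and is also counted for PPARD. The AJUBA region, inside the gene, was gained in both lines, at 21.2 and 26.1 in HCC44.

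Of the fixed SWI/SNF list, 3 of 27 genes, or 11.1%, had a gained region: DPF2, BCL7B and BCL7C. That share, like 13.6% for other chromatin remodellers and 12.5% for NRF2 targets, is near the 13.3% of all protein-coding genes. The median around a gene of the SWI/SNF list was 4 retained regions, against 2 over all genes. SS18L1, which holds the gained region described above, is not in that list. DPF2 had 2 regions, at 3476 and 12072 bp. The farther one, with −log10 q of 24.0 and 25.9, was gained in both lines, as was the BCL7B region. The BCL7B and BCL7C regions lie 49252 and 47736 bp from those genes, inside MLXIPL and FBXL19. Genes of other chromatin remodellers had 3 of 22, with regions inside CHD4 (19.2 and 19.7, 322 bp from its 3′ end) and BAZ1B, and one 42541 bp from CHD8. NRF2 targets had 2 of 16 (SRXN1 and ABCC3), the MAPK list 2 of 21 (SPRED2 and ETV4), the lung list 2 of 18 (SFTPA1 and SFTPC), and the epithelial and mesenchymal list 1 of 18, CDH1, whose region is inside its neighbour CDH3 with 38.3 and 23.7. The SFTPA1 region lies 48209 bp from that gene and 1652 bp from SFTPA2. Adhesion genes of neurons had 0 of 25, beside a median of 0 retained regions around them, and insulator and cohesin genes 0 of 11. In all, 48 distinct gained regions served the 44 genes: 23 were in no H1975 list, 8 were gained in both lines and 4 were in all 4 H1975 lists.

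**Figure D5:**
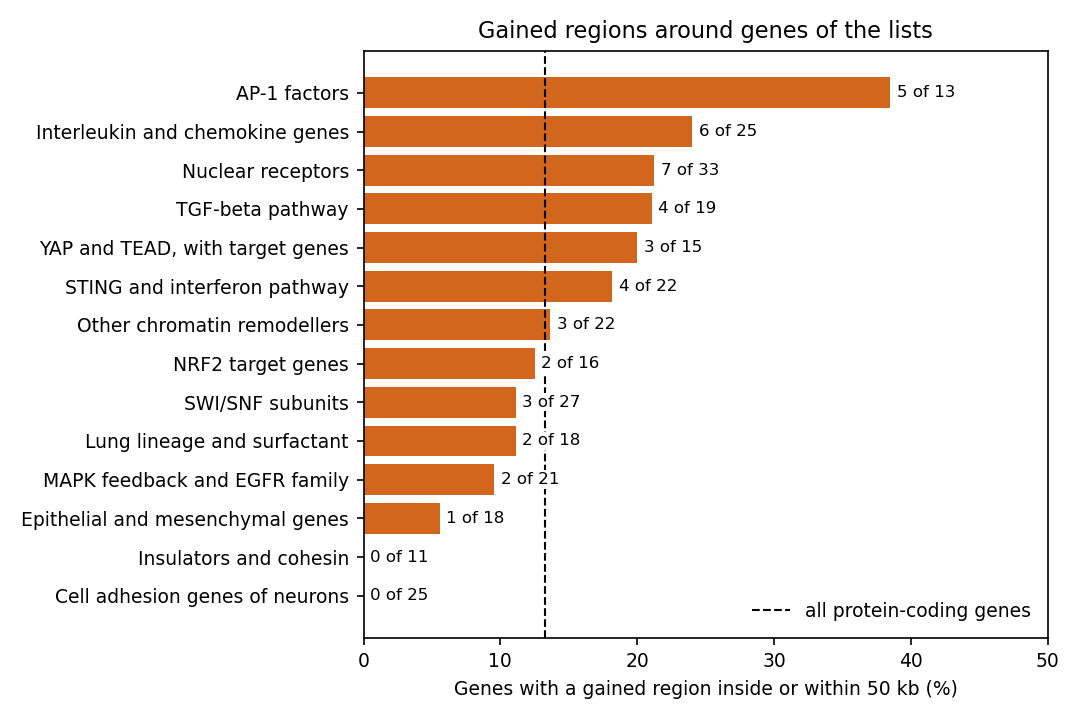
Share of the genes of each list with a gained region inside the gene or within 50 kb (horizontal axis, percent), with the number of genes written beside each bar. The dashed line marks the 13.3% of all protein-coding genes. AP-1 factors are highest with 5 of 13 genes, and 2 lists are at 0.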

How the data were processed

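ATAC-seq peak lists of 8 samples were analysed, 1 deposited list per sample, so peaks had been called per sample and replicates had not been pooled. Per the submitters' processing notes, reads were aligned with BWA to hg38. The peak caller and its filters are not given in the sources used here. The deposited lists give each peak's fold enrichment, a ratio to background, and the authors' q-value as −log10 q, with a lowest value of 10.0 to 10.2 in every list. Since depth and background enter both values, they served to rank or filter peaks within a list only, and an unlisted peak does not measure closed chromatin.

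Peaks on chromosomes 1 to 22 and X were merged and classified with Python 3.11.15, numpy 2.4.6, pandas 2.3.3 and scipy 1.17.1, after tests on simulated data. Positions were read as GRCh38, with genes, promoter windows and strand from RefSeq tables of GRCh38.p14. All 299 list genes matched by symbol. Overlap with H1975 lists needed 1 bp, and shares were compared by an exact permutation test over samples, which within 1 line has 6 arrangements and cannot pass 0.05. Regions are not replicates, so other shares are descriptions.

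Named regions were the 10 with the highest mean −log10 q percentile among all gained regions, among those gained in both lines and among those within 1 kb of a protein-coding gene end, then the 5 genes with most gained regions (with ties), and each list gene with 1 within 50 kb. Members, gene lists and motifs were chosen with earlier results of these data known. Some genes and 1 gene list that these rules name are not reported here.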

Additional observations from a re-analysis of the deposited data

Results flagged for a closer look

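Of the 1330 regions gained in HCC44, 5 moved the opposite way in H1975, with a peak in both H1975 DMSO lists and neither H1975 ACBI1 list. The difference between the lines was not tested. They were chosen for this pattern, and lie inside S1PR1 (chr1:101238691-101239178, HCC44 −log10 q of 21.2 and 24.3), inside RPTOR, 70841 bp from ETS2, inside CALB2 and 5503 bp from TBKBP1. Their H1975 DMSO peaks had −log10 q between 11.2 and 24.0. Outside the chromosomes analysed, 1 more region met the rule, on an alternate sequence of chromosome 8, with −log10 q of 11.5 and 14.3 in the ACBI1 lists.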

How the results depend on the processing

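Of 30 values under other settings, 18 were counted as unmoved, 12 as moved and none as reversed. Those counted as unmoved include 2 lower H1975 differences, against 15.6 points in the main setting. The difference was 10.7 points with a minimum fold enrichment of 5 and 10.4 points with no DMSO peak within 5 kb. The count of 1330 gained regions became 588 with a minimum −log10 q of 20 in all lists, 632 with a minimum fold enrichment of 5, 738 with no DMSO peak within 5 kb, 7173 with equal numbers of peaks per list and 222 with the −log10 q minimum in the ACBI1 lists only, a setting applied to the count after seeing the data. The median width of 493 bp became 518.5 and 533 bp with the first pair of settings. The gene end share of 10.2% became 29.7% with the fold enrichment minimum, 8.13% with no DMSO peak within 5 kb, 27.9% with a window of 5 kb and 18.3% with all annotated genes. The share within 5 kb of a DMSO peak, 44.5%, became 60.4% with the −log10 q minimum in the ACBI1 lists only. Leaving out 1 replicate gave counts of 1861 to 2715, H1975 differences of 7.89 to 23.4 points, shares gained in both lines of 5.27% to 21.1%, gene end shares of 9.37% to 10.8%, median widths of 352 to 497 bp and shares within 5 kb of 36.7% to 39.9%. Leaving out an HCC44 replicate relaxes the rule, since fewer lists must hold or lack a peak. Without chromosome 19, added after seeing the data, the H1975 difference was 15.4 points and the gene end share 9.11%. With the replicate number as a block the H1975 difference stayed 15.6 points with an exact permutation p of 0.5, the smallest of 4 arrangements. Across regions, the deviations of same-numbered samples had correlations of 0.0150 in HCC44 and −0.0109 in H1975. With 2 replicates per group, this cannot decide whether same-numbered samples were cultured or processed together. The planned comparison of base composition and motifs over whole regions, with its alternatives, was not run, because no genome sequence was used here. Depth is unknown and limits which weak peaks are listed.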

Other observations

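Of the annotated microRNA hairpins, 2 lay in gained regions: MIR6872, in a region at the 5′ end of SEMA3B on chromosome 3 with −log10 q of 26.4 and 18.2 in the HCC44 ACBI1 lists, and MIR601 on chromosome 9. The SEMA3B region was in 3 of the 4 H1975 lists. The imprinted gene GNAS had a start, at chr20:58839498-58839797, covered in full by a gained region with −log10 q of 15.8 and 14.5 and no peak in any H1975 list. The genes named in this paragraph were chosen after their values were seen.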
